A study of Danio rerio with 10 samples.

Results

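The 4 libraries described here, of 10 in the whole series, were made from livers dissected from zebrafish larvae at 78 hours post fertilization (hpf), 2 libraries with the sample name Natf6 and 2 with the sample name SIBS. All larvae came from crosses of fish with Tg(fabp10a:CAAX-EGFP) to carriers of the transgene Tg(fabp10:nAtf6-cherry; cmlc2:GFP)-C. The fabp10 promoter drives the nuclear fragment of Atf6, called nAtf6, in hepatocytes. The cmlc2 promoter makes the heart green in carriers, and the CAAX-EGFP transgene outlines the liver for dissection. All larvae were first picked for a green liver, so the SIBS larvae carried Tg(fabp10a:CAAX-EGFP) too. Each library was a pool of 20 livers, and polyA-tailed RNA was sequenced. The clutch numbers 1 and 2 used here are those of the titles; the library called Natf6 clutch 2 bears the number 3 in its sample name, and it was not established that libraries with the same number share a clutch. The 6 other libraries, 3 pools of nAtf6 transgenic (TG) and 3 of sibling livers at 5 days post fertilization (dpf), were made after removal of ribosomal RNA and enter here only where a model of all 10 libraries or a comparison of ages is named.

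The labels of these 4 libraries contradict each other. By the description of the sort, larvae with green hearts received the name Natf6 and larvae without them the name SIBS, while the titles call both Natf6 libraries sibling and both SIBS libraries transgenic. The genotype entry names the nAtf6 transgene for all 4. The libraries were grouped by sample name, and every direction below is Natf6 relative to SIBS. The atf6 counts go with the names: atf6 (ENSDARG00000012656) had 1199 and 1926 counts in Natf6 clutches 1 and 2, against 463 and 236 in SIBS clutches 1 and 2. Before scaling between libraries this was 189 counts per 1000000 counts on genes (CPM; 95% exact Clopper-Pearson interval 178 to 200) and 326 (311 to 341) in the Natf6 libraries, against 80.8 (73.6 to 88.5) and 48.5 (42.5 to 55.1) in the SIBS libraries. These intervals cover counting error only, and reads of the transgene and of the native gene were not told apart. After scaling between libraries the log2 fold change of atf6 was 1.99 ± 0.48 (SE), with an adjusted p of 0.689 in edgeR's quasi-likelihood test, so the groups did not overlap but the difference did not pass the threshold of 0.05.

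Atf6 is one of the sensors of the unfolded protein response (UPR), the program by which a cell adjusts its endoplasmic reticulum (ER) to the load of proteins it must fold. The protein sits in the ER membrane, moves to the Golgi under stress, and is cut there to release a nuclear fragment that switches on ER chaperones and factors that remove misfolded proteins. The other branches start from Ire1, which splices the messenger RNA of the transcription factor Xbp1, and from Perk, which slows translation and raises the transcription factor Atf4. Hepatocytes secrete most plasma proteins and keep an extensive ER.

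Between 4868321 and 6354867 counts per library fell on genes, so that 3 counts, the limit a count of 0 allows, corresponded to 0.472 to 0.616 CPM. The hepatocyte list had the highest summed level of the 10 cell type lists in every library. It summed to 56716 and 63213 CPM in the Natf6 libraries, against 93673 and 39878 CPM in the SIBS libraries. Both SIBS libraries stood apart in composition. SIBS clutch 1 had the highest hepatocyte sum, while SIBS clutch 2 had the lowest hepatocyte sum, the highest sums of the muscle, skin and erythrocyte lists, and 20.8% of its reads unaligned, against 8.61% to 9.35% in the other libraries. Natf6 clutch 2 stood apart by pancreas genes. In pooled livers, fewer cells of a type and less RNA per cell cannot be told apart. The p-values from fits of these pooled libraries alone measure only the spread between them, 2 per group. Those from the model of all 10 libraries also rest on the spread between the pools of older larvae, which were prepared differently. Across the genes tested the most similar pair of libraries was Natf6 clutch 1 and SIBS clutch 1 (Pearson r of log2 CPM 0.932), ahead of the Natf6 pair (0.907) and the SIBS pair (0.877).

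Of 14555 genes tested in these 4 libraries, 0 (0%) reached an adjusted p under 0.05 in edgeR's quasi-likelihood test, 869 (5.97%) had an unadjusted p under 0.05, limma-voom called 0 and DESeq2 called 188, of which 174 were higher and 14 lower in Natf6. All values per library below are CPM scaled by TMM, which corrects for the composition of a library. As a description that needs no model, a gene was called separated when the lowest library of one group was at least 2 times the highest of the other. In this sense 287 genes (1.97%) were higher and 167 genes (1.15%) were lower in Natf6, and ranges without overlap, of any size, were found for 2891 genes (19.9%) higher and 2805 genes (19.3%) lower. With a library left out, separation is easier to reach, and the numbers were highest without SIBS clutch 1 for genes higher in Natf6 (757) and without Natf6 clutch 1 for genes lower in Natf6 (1825). A model of all 10 libraries, which takes its estimate of the spread also from the 5 dpf groups, called 115 genes (0.558% of 20595) higher and 2 (0.00971%) lower in Natf6 at 78 hpf, and 2310 genes (11.2%) had an unadjusted p under 0.05 there. Of the 115 genes, 112 passed the filter of the 4-library fit and all of those were separated by at least 2-fold. The 8 lists of ER, UPR and transport genes, with 262 genes against 20595 tested in that model, held 32 of the 115. The lists of tissues other than liver held 0. These tissue lists had 11 to 53 genes tested each in that model. At the 0.558% called over all genes, few or no calls would fall in them, so the 0 is near that share. When a library of 78 hpf was left out, which leaves 1 library in its group, the calls changed in both directions. The balance of higher and lower calls thus depended on the libraries used.

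**Figure D1:**
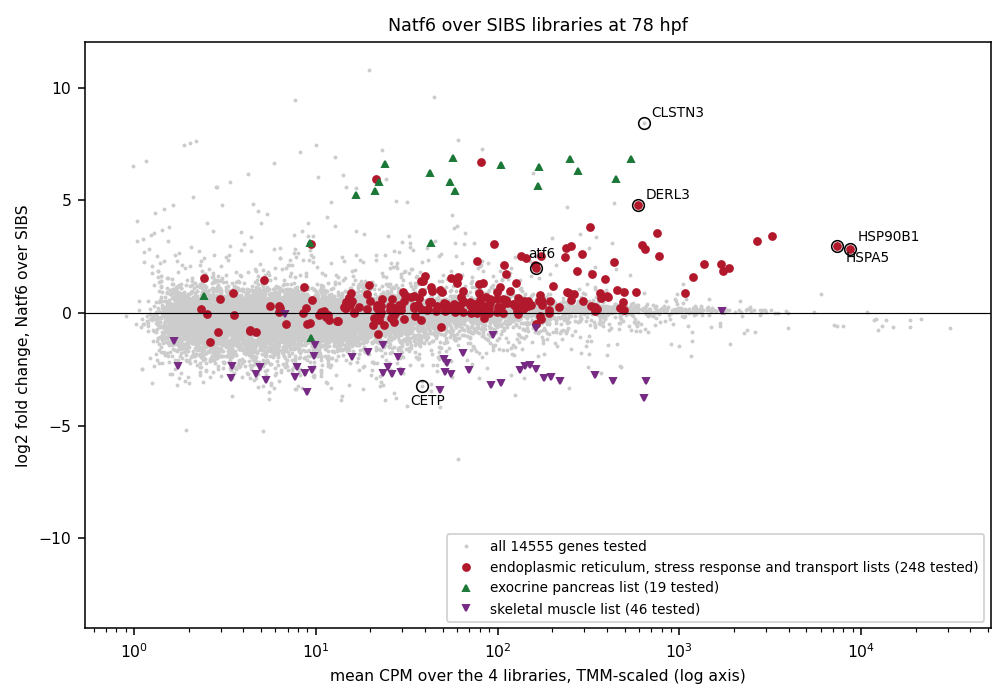
Each point is 1 of 14555 genes tested, with its mean CPM over the 4 libraries on a log axis and its log2 fold change, Natf6 over SIBS, on the y axis. The ER, stress response and transport lists hold many of the genes of high level and large positive fold change, such as HSPA5 and HSP90B1 at 2.95 and 2.85, while the exocrine pancreas list lies above 0 and the skeletal muscle list below 0, apart from a few members of each; circles mark the genes named in the plot.

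Of the 8 lists of ER, UPR and transport genes, the chaperones of the ER lumen had the largest median difference. Of 17 tested members of the list of ER Hsp70 and Hsp90 proteins and their partners (of 19 genes), 15 had a positive log2 fold change, 12 were separated by at least 2-fold and higher in Natf6, and the same number was called higher in the 10-library model. The median log2 fold change of the list was 2.44, against -0.02 over all genes tested. Of all genes tested, 47.9% had a positive log2 fold change and 1.97% were separated and higher in Natf6. The 10-library model called 0.558% of its genes higher. The counts of this list and the next ones are to be read against these shares. As the lists were chosen with earlier results of these data known, the comparison is a description only. HSPA5, known as BiP, is the Hsp70 of the ER and the partner that holds the UPR sensors inactive; it had 11126 and 15132 CPM in Natf6 clutches 1 and 2, against 2193 and 1215 CPM in SIBS clutches 1 and 2, a log2 fold change of 2.95 ± 0.38 (SE; adjusted p = 0.305 in the 4-library edgeR fit and 0.0286 in the 10-library edgeR model). HSP90B1, the ER member of the Hsp90 family also called Grp94, had 12549 and 17870 CPM in Natf6, against 2721 and 1496 CPM in SIBS (2.85 ± 0.39). HYOU1, an Hsp110-like protein that exchanges the nucleotide of HSPA5, had 4113 and 5505 CPM in Natf6 and 656 and 392 CPM in SIBS (3.2 ± 0.36). In each of these genes the lower Natf6 library was several times the higher SIBS library.

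The cofactors of HSPA5 followed. MANF, a small secreted protein of the ER lumen, had the largest log2 fold change of the list, 3.56 ± 0.35, with 1169 and 1608 CPM in Natf6 and 141 and 93.5 CPM in SIBS. SDF2L1, which works with HSPA5 and its J proteins, had 390 and 506 CPM in Natf6, against 69.2 and 44.4 CPM in SIBS (2.98 ± 0.35). Among the J proteins, which stimulate the ATPase of HSPA5, DNAJB11 had 420 and 595 CPM in Natf6 and 184 and 119 CPM in SIBS (1.74 ± 0.35), and dnajc3a, also known as p58IPK, had 643 and 807 CPM in Natf6 and 199 and 98.9 CPM in SIBS (2.28 ± 0.43). Its paralog dnajc3b differed by 2.12 ± 0.28. DNAJB9 is named for 2 identifiers. The one with more counts (ENSDARG00000016886) had 15.7 and 17.9 CPM in Natf6 and 3.15 and 0.776 CPM in SIBS (3.08 ± 0.67). The other (ENSDARG00000052072) was not separated, with 4.93 and 10.4 CPM in Natf6 and 3.70 and 1.75 CPM in SIBS (1.48 ± 0.62). SIL1, another exchange factor, differed by 2.52 ± 0.36, CRELD1 by 3.07 ± 0.42 and CRELD2 by 2.44 ± 0.35. Not all members stood apart. DNAJC10, a J protein with thioredoxin domains, had 23.2 and 21.4 CPM in Natf6 and 20.4 and 24.6 CPM in SIBS, and SDF2, the paralog of SDF2L1, had 28.0 and 40.0 CPM in Natf6 and 44.6 and 39.0 CPM in SIBS.

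Of 23 tested protein disulfide isomerases and ER oxidases, which form and rearrange disulfide bonds, 18 had a positive log2 fold change, 5 were separated and higher in Natf6, and 3 (PDIA3, PDIA4 and pdia8) were called higher in the 10-library model. The median of the list was 0.42. PDIA4 had 5291 and 6561 CPM in Natf6, against 708 and 393 CPM in SIBS (3.43 ± 0.38). For pdia8 the values were 40.3 and 44.1 CPM in Natf6 and 0.926 and 0.388 CPM in SIBS. These SIBS values rest on only 5 and 2 counts. The log2 fold change of pdia8 was 5.95 ± 0.44, with an adjusted p of 0.000564 in the 10-library edgeR model. PDIA6 had 771 and 1434 CPM in Natf6 and 195 and 80.7 CPM in SIBS (3.00 ± 0.60), and PDIA3, the partner of the calnexin cycle, had 2346 and 3107 CPM in Natf6 and 888 and 601 CPM in SIBS (1.87 ± 0.30). The separation was thus carried by a few isomerases. P4HB, the classical disulfide isomerase, differed by only 0.93 ± 0.36, and ERO1A, an oxidase that feeds the isomerases, had 7.54 and 5.27 CPM in Natf6 and 7.41 and 4.85 CPM in SIBS. The fifth separated member, pdia2, is the pancreatic isomerase and followed the pancreas genes described below, with 13.5 and 307 CPM in Natf6 and 1.85 and 1.16 CPM in SIBS.

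ER-associated degradation (ERAD) draws misfolded proteins back out of the ER for destruction by the proteasome. Of 30 tested members, 28 had a positive log2 fold change, 8 were separated and higher in Natf6, 0 were separated and lower, and 5 (DERL3, HERPUD1, EDEM1, SEL1L and os9) were called higher in the 10-library model. The list median was 0.36, since most members differed little. DERL3, a derlin of the retrotranslocation channel, had 1145 and 1139 CPM in Natf6, against 50.2 and 31.6 CPM in SIBS (4.80 ± 0.35). HERPUD1, which anchors the ubiquitin ligase complex, had 563 and 648 CPM in Natf6 and 63.5 and 22.3 CPM in SIBS (3.82 ± 0.60). EDEM1, which marks glycoproteins for removal, had 397 and 441 CPM in Natf6 and 70.9 and 41.7 CPM in SIBS (2.90 ± 0.36). Members of the same ligase complex also stood apart. Its scaffold SEL1L had 459 and 538 CPM in Natf6 and 99.2 and 65.6 CPM in SIBS (2.60 ± 0.31), the lectin os9 had 381 and 415 CPM in Natf6 and 98.7 and 43.7 CPM in SIBS (2.48 ± 0.47), and the ligase SYVN1, or Hrd1, had 141 and 204 CPM in Natf6 and 61.1 and 41.9 CPM in SIBS (1.74 ± 0.33). The ATPase VCP, which pulls substrates into the cytosol and is not confined to the ER, had 1690 and 1890 CPM in Natf6, against 596 and 591 CPM in SIBS (1.59 ± 0.20), and DERL2 differed by 1.54 ± 0.25. By contrast EDEM3 had 35.1 and 32.1 CPM in Natf6 and 42.2 and 31.4 CPM in SIBS, and the ligase RNF185 had 16.3 and 22.6 CPM in Natf6 and 26.3 and 18.6 CPM in SIBS.

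Glycoprotein folding is watched over by lectins that bind trimmed sugar chains. Of 26 tested members of this list, 22 had a positive log2 fold change, 7 were separated and higher in Natf6, and the same number was called in the 10-library model. The median was 0.86, and 4 members had a negative log2 fold change. Among these, CLGN had 28.6 and 26.5 CPM in Natf6 and 32.6 and 34 CPM in SIBS, a log2 fold change of -0.27. FKBP9 had 30.8 and 16.5 CPM in Natf6 and 17.2 and 38.8 CPM in SIBS (-0.24 ± 0.53). The calreticulins, soluble lectins that also store calcium, had large values throughout: CALR had 1107 and 1520 CPM in Natf6 and 280 and 173 CPM in SIBS (2.54 ± 0.36), calr3a had 2549 and 2978 CPM in Natf6 and 800 and 422 CPM in SIBS (2.18 ± 0.38), and calr3b had 1866 and 2649 CPM in Natf6 and 636 and 353 CPM in SIBS (2.19 ± 0.39). CANX, the membrane-bound lectin calnexin, had 1258 and 1537 CPM in Natf6 and 869 and 630 CPM in SIBS, a smaller log2 fold change of 0.90 ± 0.26. UGGT1, the glucosyltransferase that sends unfolded glycoproteins back for another round, had 199 and 326 CPM in Natf6 and 65.7 and 53 CPM in SIBS (2.14 ± 0.35). Calcium-binding proteins of the secretory pathway were also in the list. CALU had 1032 and 1229 CPM in Natf6 and 205 and 113 CPM in SIBS (2.83 ± 0.38), rcn3 had 227 and 233 CPM in Natf6 and 36.3 and 43.1 CPM in SIBS (2.53 ± 0.23), and the prolyl isomerase PPIB had 2797 and 3190 CPM in Natf6 and 937 and 561 CPM in SIBS (2.00 ± 0.32).

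**Figure D2:**
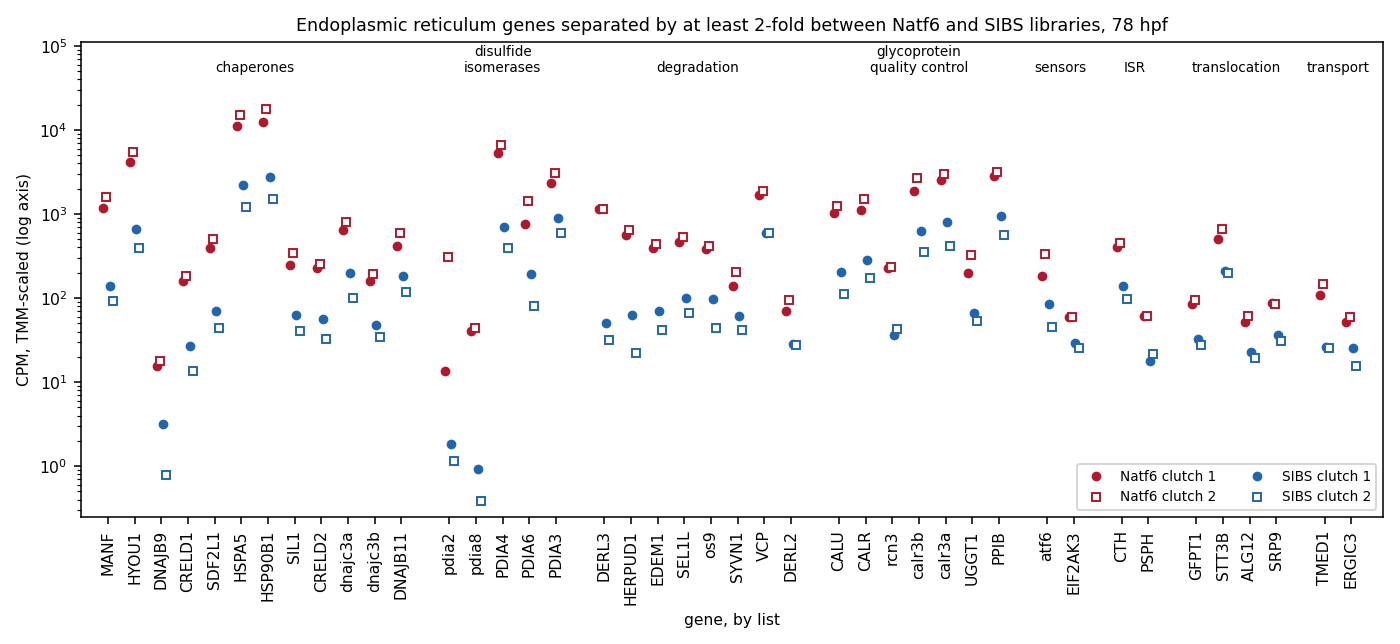
CPM (TMM-scaled, log axis) of the 42 ER, UPR and transport genes separated by at least 2-fold, 1 column per gene, grouped by list (ISR, integrated stress response); red points are the Natf6 and blue points the SIBS libraries, filled for clutch 1 and open for clutch 2. All 42 are higher in Natf6; in most of them SIBS clutch 2 is the lowest and Natf6 clutch 2 the highest, and pdia2 is the gene with the widest gap between the Natf6 libraries (13.5 and 307 CPM). CPM are not divided by gene length, so levels of different genes are not comparable.

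The sensors themselves stood less apart. Of 12 tested sensors and processing proteases, 10 had a positive log2 fold change with a median of 0.38. Only atf6 and EIF2AK3 were separated, and 0 were called in either edgeR fit. The transgene carries a fragment of atf6, whose counts were also set against the labels. Its separation therefore cannot be read as a response of the native gene. EIF2AK3, the kinase Perk, had 58.8 and 59.9 CPM in Natf6, against 28.9 and 25.2 CPM in SIBS (1.13 ± 0.21). The other sensor kinase, ern1 (Ire1), had 16.5 and 17.2 CPM in Natf6 and 12.8 and 13.2 CPM in SIBS (0.37 ± 0.23). Its target XBP1 had 427 and 481 CPM in Natf6 and 362 and 207 CPM in SIBS (0.67 ± 0.34), and these counts do not tell the spliced message from the unspliced one.

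Genes of the integrated stress response, the program downstream of Perk and Atf4, divided. Of 28 tested, 13 had a positive and 15 a negative log2 fold change, with a median of -0.03, near that of all genes. The pair separated and called in the 10-library model makes amino acids: CTH, which releases cysteine from cystathionine, had 406 and 456 CPM in Natf6 and 138 and 98.0 CPM in SIBS (1.87 ± 0.28; adjusted p = 0.0130 in the 10-library edgeR model), and PSPH, the last step of serine synthesis, had 60.5 and 60.7 CPM in Natf6 and 17.6 and 21.7 CPM in SIBS (1.62 ± 0.22; adjusted p = 0.0177 in the same edgeR model). Among the transcription factors of the branch, DDIT3 and atf4b overlapped between the groups. DDIT3, or Chop, had 11.1 and 5.79 CPM in Natf6 and 8.33 and 8.73 CPM in SIBS, and atf4b had 123 and 133 CPM in Natf6 and 115 and 149 CPM in SIBS, while cebpg, a partner of Atf4, had 20.9 and 18.6 CPM in Natf6 and 26.8 and 22.7 CPM in SIBS. CHAC1, a further target of the branch, had 214 and 57.9 CPM in Natf6 and 323 and 58.6 CPM in SIBS, and so was high in both clutch 1 libraries and low in both clutch 2 libraries.

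Genes of entry into the ER and of exit from it differed by less per gene, mostly in the same direction. Of 49 tested genes of translocation and N-glycosylation, 43 had a positive log2 fold change (87.8%, against 47.9% of all genes tested), with a median of 0.28, and 4 were separated. The median was 0.12 without SIBS clutch 2 and 0.67 without SIBS clutch 1. The separated genes were GFPT1, which starts the making of the sugar donor for glycosylation (86.0 and 95.7 CPM in Natf6, 33.0 and 27.9 CPM in SIBS), STT3B, a catalytic subunit of the oligosaccharyltransferase (503 and 658 CPM in Natf6, 210 and 197 CPM in SIBS), ALG12, a mannosyltransferase of the lipid-linked sugar (51.6 and 61.4 CPM in Natf6, 22.6 and 19.4 CPM in SIBS), and SRP9 of the signal recognition particle (87.1 and 85.3 CPM in Natf6, 36.7 and 30.8 CPM in SIBS). ALG12 was the member of this list called higher in the 10-library model. Of 63 tested genes of COPII, COPI and ER-Golgi transport, 59 had a positive log2 fold change (93.7%), with a median of 0.37. This median was 0.29 without SIBS clutch 2 and 0.63 without SIBS clutch 1. The separated members were TMED1 (ENSDARG00000017255), a cargo receptor with 110 and 146 CPM in Natf6 and 25.9 and 25.6 CPM in SIBS (2.31 ± 0.25), and ERGIC3, a cargo receptor of the intermediate compartment, with 52.3 and 58.8 CPM in Natf6 and 25.5 and 15.7 CPM in SIBS (1.43 ± 0.31). The members of the transport list called in the 10-library model were TMED1 and arf4b, a small GTPase with 8 and 5 counts in Natf6 and 0 in both SIBS libraries. Natf6 clutch 2 was the highest library for 34 of the 49 tested translocation genes and 45 of the 63 tested transport genes. Without it the medians were 0.20 and 0.36 in this order, and its part in these differences was not tested. Together 248 of the 262 genes of the 8 lists were tested, and 208 had a positive log2 fold change. In these lists 42 genes, atf6 included, were separated and higher in Natf6, and 0 were separated and lower. The share separated and higher was 70.6% for chaperones, 21.7% for disulfide isomerases, 26.7% for ERAD and 26.9% for glycoprotein quality control. It was 16.7% for sensors, with atf6 counted, 7.14% for the integrated stress response, 8.16% for translocation and 3.17% for transport. Over all genes tested it was 1.97%.

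The list medians of the ER genes were fitted again with a library left out. Without Natf6 clutch 2, the library with pancreas genes given below, they were 2.26 for the chaperones, 0.30 for the disulfide isomerases, 0.34 for ERAD and 0.75 for glycoprotein quality control. Without SIBS clutch 2, the library with the lowest hepatocyte sum, they were 2.1, 0.31, 0.43 and 0.67 in the same order, and they were 2.92, 0.78, 0.51 and 1.22 without SIBS clutch 1. All stayed above 0, and of these 4 the isomerase median moved most in proportion. Without SIBS clutch 1, 8 isomerases, 12 glycoprotein quality control genes, 11 translocation genes and 7 transport genes were separated, although leaving out a library can keep or raise such a number but not lower it.

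**Figure D3:**
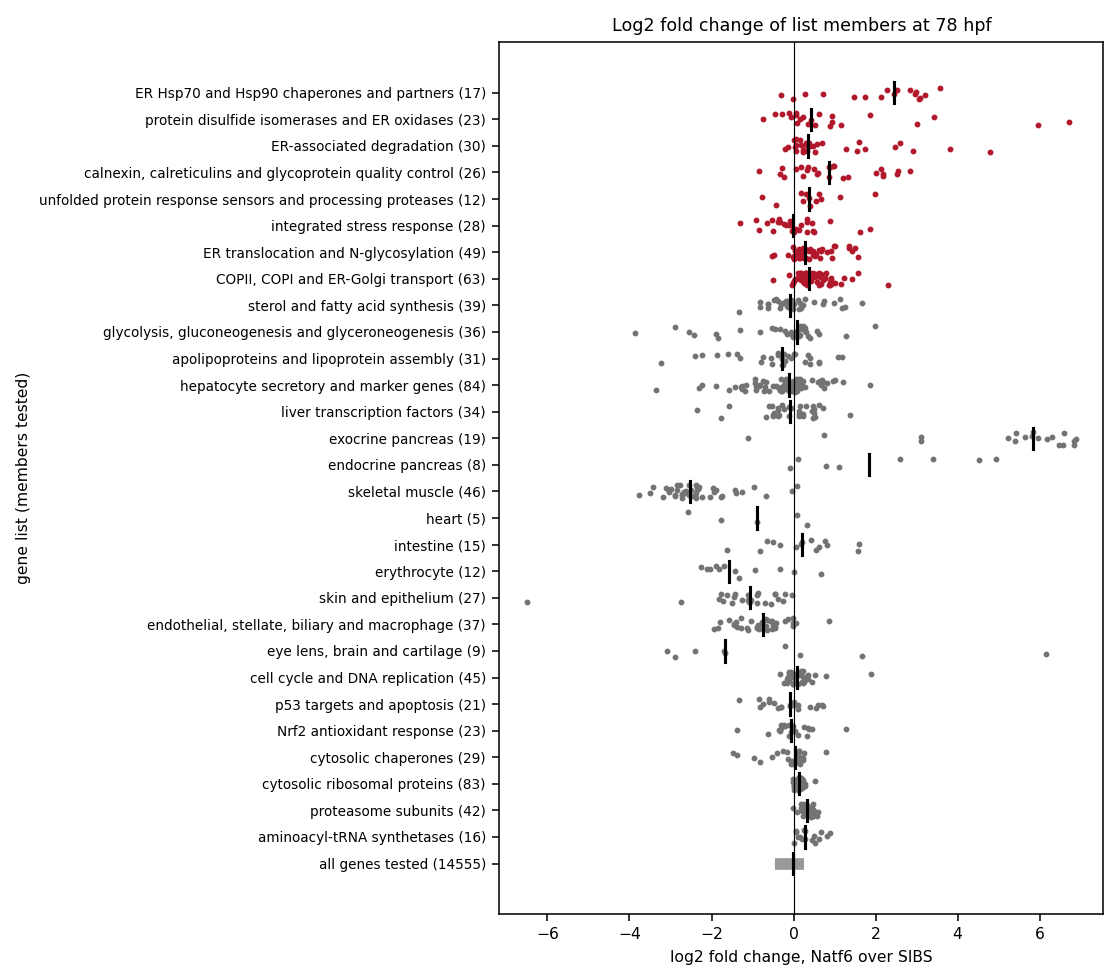
Log2 fold change, Natf6 over SIBS, of each tested member (points, jittered vertically) of the 29 gene lists, with the number tested in parentheses; black bars are medians and the grey bar spans the middle 50% of all genes tested. The list of ER chaperones has its median at 2.44 and the transport list at 0.37, while the exocrine pancreas list at 5.83 and the muscle list at -2.53 are lists with most of their summed CPM in 1 library.

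The genes with the smallest p in the 4-library fit were mostly outside the ER lists, apart from DERL3 and pdia8. CLSTN3, a calsyntenin known as a neuronal adhesion protein, had 1313 and 1229 CPM in Natf6, against 4.26 and 3.10 CPM in SIBS (8.42 ± 0.34), and tubb4bl, a beta tubulin, had 153 and 174 CPM in Natf6 and 0.926 and 1.16 CPM in SIBS (7.26 ± 0.30). Both had an adjusted p of 0.0549 in the 4-library edgeR fit, the lowest of all genes. EPDR1, an ependymin-related protein, had 104 and 138 CPM in Natf6 and 0.370 and 0.776 CPM in SIBS (7.68 ± 0.44). The SIBS values rest on few counts, 5 and 6 for tubb4bl and 2 and 4 for EPDR1. CHRNA2, a nicotinic receptor subunit, had 276 and 204 counts in Natf6 and 0 in both SIBS libraries. Against a floor of 3 counts per library, CHRNA2 was at least 61.5-fold higher in Natf6. It was thus under the detection limit in both SIBS libraries and far above it in both Natf6 libraries.

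Others of these genes had counts in all 4 libraries, TKT and NPTX1 with no more than 2 counts in each SIBS library. The SIBS counts of neff2 were 2 and 4. SELENOM, a selenoprotein of the ER, had 412 and 520 CPM in Natf6 and 14.6 and 21.5 CPM in SIBS (4.69 ± 0.35), and hmgn3, a nucleosome-binding protein, had 600 and 676 CPM in Natf6 and 62.4 and 59.8 CPM in SIBS (3.38 ± 0.23). TKT, a transketolase, had 39.7 and 52.5 CPM in Natf6 and 0.370 and 0.194 CPM in SIBS, and NPTX1, a neuronal pentraxin, had 32.0 and 18.6 CPM in Natf6 and 0.185 and 0.194 CPM in SIBS. Further genes with the smallest p in the 4-library or the 10-library model were neff2 (24.0 and 33.4 CPM in Natf6, 0.370 and 0.776 CPM in SIBS), zgc:65895 (28.0 and 33.4 CPM in Natf6, 2.96 and 1.94 CPM in SIBS), triobpb (119 and 126 CPM in Natf6, 8.15 and 12.6 CPM in SIBS) and tuba1b, an alpha tubulin (325 and 400 CPM in Natf6, 28.5 and 43.5 CPM in SIBS). All of these were called higher in the 10-library model.

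Fewer genes were separated and lower in Natf6. CETP, the cholesteryl ester transfer protein of plasma lipoproteins, had 4.77 and 10.0 CPM in Natf6 and 91.1 and 47.7 CPM in SIBS (-3.23 ± 0.55) and fell in the 10-library model (adjusted p = 0.0278, edgeR). SLC40A1, the iron exporter ferroportin, had 21.9 and 19.3 CPM in Natf6 and 48.5 and 58.0 CPM in SIBS (-1.37 ± 0.23). The secreted protease inhibitor cst3, or cystatin C, had 34.8 and 36.0 CPM in Natf6 and 72.6 and 77.0 CPM in SIBS (-1.08 ± 0.20), EHD3, of endocytic recycling, had 31.9 and 23.3 CPM in Natf6 and 67.6 and 69.3 CPM in SIBS (-1.31 ± 0.25), and ANGPTL6, a secreted angiopoietin-like protein, had 20.6 and 20.9 CPM in Natf6 and 42.0 and 55.7 CPM in SIBS (-1.23 ± 0.25). In all of these genes both SIBS libraries were above both Natf6 libraries. The other gene that fell in the 10-library model, sgcg, encodes a sarcoglycan of muscle and had 1.39 and 0.351 CPM in Natf6, against 5.55 and 12.0 CPM in SIBS (-3.28 ± 0.81). It moved with the muscle list, whose part in this difference was not tested.

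The 13 messenger RNAs of the mitochondrial genome, a group chosen after its values were seen, were all lower in both Natf6 libraries. Of all genes tested, 19.3% were lower in Natf6 without overlap, and 0 of the 13 were separated by 2-fold. Together the 13 took 10.0% and 8.61% of the counts on genes in Natf6, against 12.5% and 16.8% in SIBS. Their log2 fold changes ran from -1.35 (mt-atp8) to -0.53 (MT-ND2) with a median of -0.64, and the lowest adjusted p was 0.578 in the 4-library edgeR fit, so none was called. The median stayed between -0.74 and -0.49 when any library was left out. At 5 dpf the median of the 13 was -0.16, and 0 were called in the edgeR test on the 6 libraries.

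Genes of lipid, sugar and plasma protein metabolism showed no common direction. In sterol and fatty acid synthesis 15 of 39 tested genes had a positive log2 fold change (median -0.08), in glycolysis and gluconeogenesis 20 of 36 (median 0.08), and among apolipoproteins 10 of 31 (median -0.29). The signs of these medians turned with the SIBS library used: without SIBS clutch 1 they were 0.19, 0.54 and 0.62, and without SIBS clutch 2 -0.29, -0.26 and -0.65, in the same order. MVK, mevalonate kinase of the sterol pathway, had 87.4 and 107 CPM in Natf6 and 29.2 and 31.4 CPM in SIBS (1.68 ± 0.22), and HSD17B7, a later step of the pathway, had 113 and 124 CPM in Natf6 and 56.1 and 43.1 CPM in SIBS (1.25 ± 0.24). These were the 2 separated members of the sterol list. Of 84 tested hepatocyte genes 30 had a positive log2 fold change (median -0.10), and 1 was separated in each direction. The higher one was hamp, the iron hormone hepcidin, with 469 and 543 CPM in Natf6 and 217 and 61.3 CPM in SIBS (1.86 ± 0.65). The marker fabp10a, whose promoter drives the transgenes, had 1746 and 1795 CPM in Natf6 and 4687 and 1266 CPM in SIBS, and tfa, or transferrin, had 14500 and 18625 CPM in Natf6 and 28183 and 13142 CPM in SIBS. In both, the SIBS libraries lay on either side of the Natf6 libraries. The hepatocyte list median was 0.75 without SIBS clutch 1 and -0.61 without SIBS clutch 2, so its sign was decided by which SIBS library was used.

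Lists of protein synthesis and turnover differed by small amounts per gene. Of 83 tested ribosomal protein genes 81 had a positive log2 fold change with a median of 0.13, of 42 proteasome subunits 41 did with a median of 0.33, and of 16 cytosolic aminoacyl-tRNA synthetases 16 did with a median of 0.28. None of these genes was separated or called. In the same order, 63, 31 and 10 of them were higher in Natf6 without overlap. Of all genes tested, 19.9% were higher in Natf6 without overlap. Natf6 clutch 2, the library with pancreas genes, was the highest for 77 of 83 ribosomal, 41 of 42 proteasome and 16 of 16 synthetase genes tested. Without it the medians were 0.09, 0.21 and 0.16 in this order. The part of that library in these differences was not tested. TARS1, the synthetase for threonine, had the largest value of its list, 339 and 427 CPM in Natf6 and 227 and 184 CPM in SIBS (0.90 ± 0.26). In the cell cycle list 27 of 45 were positive (median 0.08). Its 1 separated gene, a share of 2.22% that is near the 1.97% of all genes tested, was RRM2. This small subunit of ribonucleotide reductase had 56.5 and 118 CPM in Natf6 and 27.0 and 20.4 CPM in SIBS. Positive values were found for 9 of 21 p53 targets and apoptosis genes (median -0.09) and 9 of 23 Nrf2 antioxidant genes (median -0.07). They were found for 17 of 29 cytosolic chaperones (median 0.03) and 16 of 34 liver transcription factors (median -0.08). With a library left out these medians ran from -0.04 to 0.22, -0.28 to 0.14, -0.15 to 0.08, 0.00 to 0.12 and -0.16 to 0.49 in the same order, so all but that of the cytosolic chaperones changed sign in some setting. The glutathione transferase gstp1.2 had 1599 and 1350 CPM in Natf6 and 711 and 516 CPM in SIBS (1.27 ± 0.26), close to but under the 2-fold separation.

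Some genes, many of them of other tissues, were highest by far in a single library. Over all genes tested, of any tissue, those whose highest library was at least 10 times the second highest were counted. Natf6 clutch 2 carried 25, SIBS clutch 1 carried 8, SIBS clutch 2 carried 7 and Natf6 clutch 1 carried 0. In Natf6 clutch 2 most were digestive enzymes of the exocrine pancreas, an organ that lies next to the liver in the larva. The trypsinogen prss59.2 had 67.4 and 2096 CPM in Natf6 clutches 1 and 2 and 14.1 and 4.85 CPM in SIBS, prss1 had 48.6 and 1728 CPM in Natf6 and 15.4 and 13.4 CPM in SIBS, and the chymotrypsinogen ctrb.1 had 28.9 and 1073 CPM in Natf6 and 9.44 and 4.46 CPM in SIBS. The 30 genes of the exocrine list summed to 287 and 8978 CPM in Natf6, against 115 and 53.5 CPM in SIBS, so clutch 1 was also above both SIBS libraries, by a smaller amount. The median of its 19 tested genes was 5.83, and 1.68 without Natf6 clutch 2. Of the 287 genes separated and higher in Natf6, 12 were in the exocrine or endocrine pancreas lists. They made up 52.6% of the 19 tested exocrine and 25% of the 8 tested endocrine genes, against 1.97% of all genes tested. Insulin, ins, had 0.308 and 254 CPM in Natf6 and 0 in both SIBS libraries, and the endocrine list summed to 151 and 636 CPM in Natf6 and 193 and 127 CPM in SIBS. Of this sum, ppdpfa alone gave 99.6 and 164 CPM in Natf6 and 178 and 102 CPM in SIBS. It was most of the endocrine sum in every library but Natf6 clutch 2. The intestine list was not carried by 1 library, with 1984 and 1544 CPM in Natf6 and 1982 and 635 CPM in SIBS.

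SIBS clutch 2 carried genes of muscle, skin, blood and connective tissue. The muscle calcium pump atp2a1 had 164 and 10.7 CPM in Natf6 and 227 and 2145 CPM in SIBS clutches 1 and 2, and the muscle actin actc1b had 265 and 22.3 CPM in Natf6 and 502 and 1844 CPM in SIBS. The muscle list summed to 3928 and 2006 CPM in Natf6, against 5027 and 13508 CPM in SIBS. Of this sum, the enolase ENO3 alone gave 1797 and 1738 CPM in Natf6 and 2223 and 1104 CPM in SIBS. ENO3 did not follow the other muscle genes named here and made up most of the muscle sum of Natf6 clutch 2. The skin list summed to 4992 and 3306 CPM in Natf6, against 4718 and 10250 CPM in SIBS. The muscle list median of -2.53 was -5.18 without Natf6 clutch 1 and -1.33 without SIBS clutch 2. Of the 167 genes separated and lower in Natf6, 10 were in the muscle and skin lists. They made up 17.4% of the 46 tested muscle and 7.41% of the 27 tested skin genes, against 1.15% of all genes tested. Erythrocyte genes summed to 179 and 345 CPM in Natf6 and 177 and 1312 CPM in SIBS, led by the globin hbae3 with 83.7 and 199 CPM in Natf6 and 75.3 and 914 CPM in SIBS. Collagen col1a1a had 2086 and 38.1 CPM in Natf6 and 405 and 5120 CPM in SIBS, high in a library of each group. SIBS clutch 1 carried a different set, with FBP2, a fructose bisphosphatase, at 88.8 and 0.351 CPM in Natf6 and 898 and 1.36 CPM in SIBS, PFKP (ENSDARG00000028000), a phosphofructokinase, at 32.0 and 5.27 CPM in Natf6 and 441 and 19.8 CPM in SIBS, and the keratin krt1-19d at 1.39 and 1.23 CPM in Natf6 and 229 and 12.2 CPM in SIBS. The set also held apcs, with 6.31 and 3.69 CPM in Natf6 and 169 and 14.4 CPM in SIBS. A further member, serpina7, had 3.39 and 0.878 CPM in Natf6 and 41.1 and 3.30 CPM in SIBS. Of the genes named from this set, krt1-19d and apcs were also separated and lower in Natf6, while FBP2, PFKP and serpina7 were not separated. Both apcs and serpina7 were also lower in nAtf6 TG at 5 dpf (log2 fold changes -5.21 and -3.45).

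**Figure D4:**
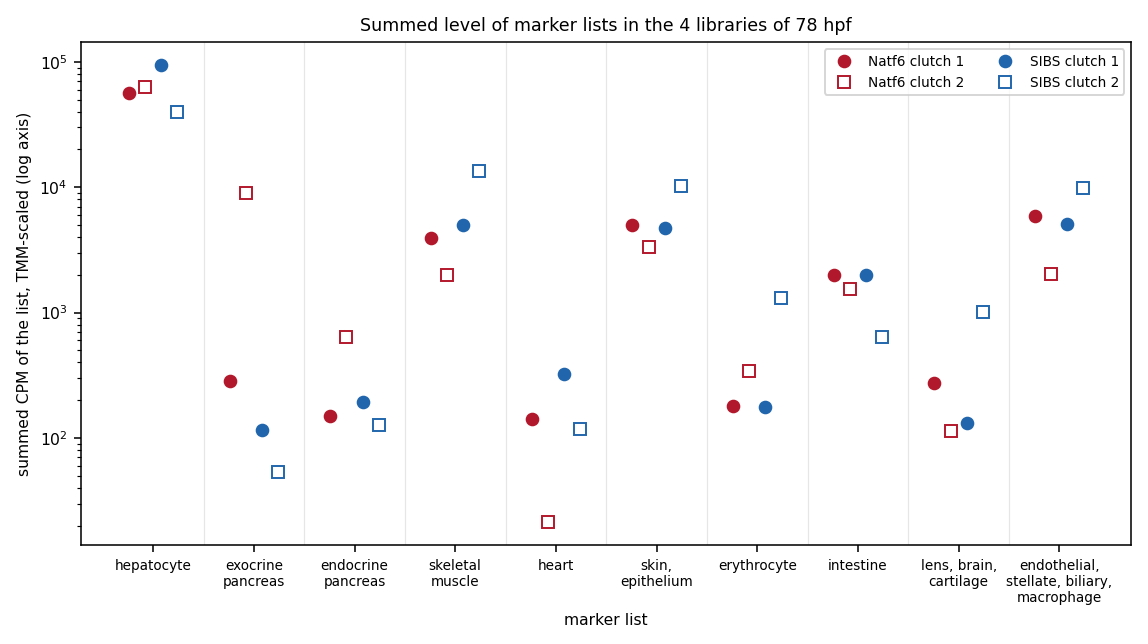
Summed CPM (TMM-scaled, log axis) of 10 marker lists in each library; red points are the Natf6 and blue points the SIBS libraries, filled for clutch 1 and open for clutch 2. Natf6 clutch 2 holds 8978 CPM of exocrine pancreas genes, against 287 CPM in Natf6 clutch 1 and 115 and 53.5 CPM in SIBS, while SIBS clutch 2 has the highest muscle, skin and erythrocyte sums and the lowest hepatocyte sum, 39878 CPM. Single genes carry some sums: ENO3 gives 1738 CPM of the muscle sum in Natf6 clutch 2. The gene ppdpfa gives 178 and 102 CPM of the endocrine sums in SIBS clutches 1 and 2.

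At 5 dpf the same comparison of nAtf6 TG with sibling livers called 2531 genes higher (13.7% of 18470) and 1382 lower (7.48%) in edgeR's quasi-likelihood test on the 6 libraries. The list medians at 78 hpf and 5 dpf were 2.44 and 3.87 for the ER chaperones, 0.36 and 0.55 for ERAD, 0.86 and 2.45 for glycoprotein quality control and 0.37 and 1.15 for transport. Not all lists kept their sign. The integrated stress response list had medians of -0.03 and 0.71. At 5 dpf 13 of its 32 tested genes were called higher and 2 lower, beside 13.7% and 7.48% of all genes. The exocrine pancreas list, carried mostly by Natf6 clutch 2 at 78 hpf, had medians of 5.83 and -1.41, and the endocrine pancreas list 1.85 and -0.93. The differences between these medians were not tested. For each gene the difference between the ages was tested in 1 edgeR model of all 10 libraries. It called 14 genes of 20595 (0.068%), all with a smaller Natf6 difference at 78 hpf; 2728 genes (13.2%) had an unadjusted p under 0.05. None of the 14 was in a list used here. Age and library preparation differ together and cannot be told apart. Neither the calls nor their shared direction held in every setting. With at least 10 counts in every library 77 genes were called. Of these, 71 had a lower and 6 a higher log2 fold change at 78 hpf than at 5 dpf. With a library of 78 hpf left out, the outcome ranged from no gene called to genes called in both directions.

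The nucleosome-binding hmgn3, on 1 scaling over all 10 libraries, had 472 and 585 CPM in Natf6 and 47.9 and 43.3 CPM in SIBS at 78 hpf, while at 5 dpf it had 840, 1212 and 1132 CPM in nAtf6 TG and 12.0, 10.1 and 11.1 CPM in siblings. The tubulin tuba1b had 255 and 347 CPM in Natf6 and 21.9 and 31.5 CPM in SIBS at 78 hpf, and 358, 387 and 416 CPM in nAtf6 TG and 3.85, 2.82 and 3.84 CPM in siblings at 5 dpf. Both were already apart at 78 hpf, and their SIBS values exceeded the 5 dpf sibling values. RAD54B, a helicase of DNA repair, had 10.3 and 8.51 CPM in Natf6 and 2.56 and 1.41 CPM in SIBS at 78 hpf, and 67.7, 83.4 and 82.2 CPM in nAtf6 TG and 1.32, 0.794 and 1.48 CPM in siblings at 5 dpf. LRIG3, a membrane protein with leucine-rich repeats, overlapped at 78 hpf, with 10.3 and 4.71 CPM in Natf6 and 4.55 and 7.31 CPM in SIBS, and stood apart at 5 dpf, with 49.0, 79.2 and 89.9 CPM in nAtf6 TG and 3.49, 2.02 and 2.76 CPM in siblings. P3H1, a prolyl hydroxylase of collagen in the ER, had 24.7 and 24.2 CPM in Natf6 and 9.66 and 9.14 CPM in SIBS at 78 hpf, and 45.2, 73.3 and 78.8 CPM in nAtf6 TG and 4.45, 4.26 and 4.04 CPM in siblings at 5 dpf.

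**Figure D5:**
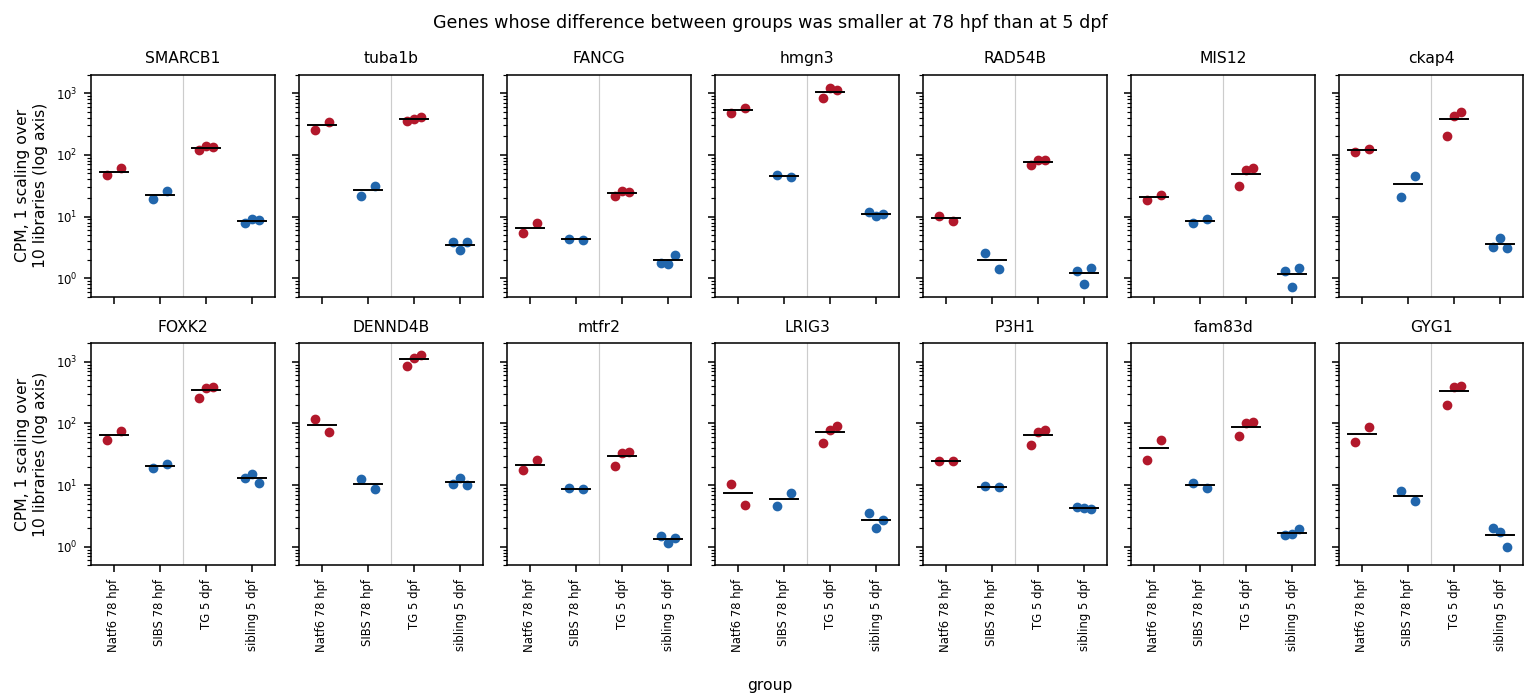
CPM on 1 scaling over 10 libraries (log axis) of the 14 genes whose difference between groups was smaller at 78 hpf; each point is a library (2 per group at 78 hpf, 3 per group at 5 dpf), black bars are group means, red marks Natf6 or nAtf6 TG and blue SIBS or sibling. At 5 dpf the red points lie above the blue points in all 14 genes, while at 78 hpf LRIG3 overlaps.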

How the data were processed

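Total RNA came from dissected livers in pools of 20 at 78 hpf, as 2 libraries with the sample name Natf6 and 2 with the sample name SIBS. The deposited values are unnormalized whole-number counts of reads per Ensembl gene, which the authors made with HTSeq on GRCz10, per the labels, with CASAVA, MultiQC 1.7 and DESeq2 also named in the processing notes. The aligner for 78 hpf is not given in the sources used here, and the libraries are not stated to keep strand, so reads of overlapping or antisense genes cannot be told apart. For 5 dpf the notes name TopHat2 2.1.0, FastQC 0.11.5, Trimmomatic and HTSeq. The special entries of the 78 hpf counts (reads not aligned, not unique, ambiguous or outside genes) made up 35.31% to 47.39% of each file and entered neither library sizes nor tests. Gene names came from a table of Ensembl identifiers.

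Counts were filtered with filterByExpr, scaled by TMM and tested with edgeR 4.0.16 (quasi-likelihood, legacy method, Benjamini-Hochberg adjustment over all genes tested) in R 4.3.3, Natf6 minus SIBS, for the 4 libraries alone. CPM below the level of 3 counts were raised to it before groups were called separated. Named genes were atf6, the described members and the leading members of each list, the 12 genes with the smallest p in each direction, genes called with 10 libraries, genes carried by 1 library and genes that differed between the ages. Promoter and protein sequences were not analysed here, and a few genes that the rule names are not reported here. The members and lists were chosen with earlier results of these data known. Alternatives were RLE scaling, other filters, robust fitting, DESeq2 1.42.0, limma 3.58.1 (voom), a model of 10 libraries, a replicate block and leaving out each library. The fits were run on simulated data with known changes and the same spread for every gene and library. The simulations thus did not cover the uneven composition of these libraries. Intervals and the floor of 3 counts cover counting error only, since reads carry no molecular identifiers.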

Additional observations from a re-analysis of the deposited data

Results flagged for a closer look

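For 14 genes the difference between groups at 78 hpf (Natf6 minus SIBS) was smaller than that at 5 dpf (nAtf6 TG minus sibling) by an edgeR test of the difference itself in 1 model of all 10 libraries. The log2 fold change at 78 hpf minus that at 5 dpf was -2.70 for SMARCB1, -3.28 for tuba1b, -3.03 for FANCG, -3.05 for hmgn3, -3.74 for RAD54B, -4.09 for MIS12 and -4.90 for ckap4. It was -3.05 for FOXK2, -3.46 for DENND4B, -3.11 for mtfr2, -4.35 for LRIG3, -2.57 for P3H1, -3.70 for fam83d and -4.36 for GYG1. The adjusted p-values from edgeR ran from 0.0359 to 0.0465. Fitted separately by age, FANCG, of the Fanconi anemia repair pathway, had a log2 fold change of 0.44 at 78 hpf and 3.60 at 5 dpf, MIS12, of the kinetochore, 1.13 and 5.34, ckap4, a membrane protein of the rough ER, 1.65 and 6.71, and GYG1, the primer of glycogen synthesis, 3.19 and 7.69. The libraries of the 2 ages were also prepared in different ways, and age and preparation cannot be told apart. No gene was called without Natf6 clutch 2 or with the replicate block.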

How the results depend on the processing

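Of the settings tried for the 4-library comparison, RLE scaling, robust fitting, limma-voom and the replicate block by clutch number also called 0 genes (872, 783 and 610 had an unadjusted p under 0.05 with RLE, limma-voom and the block). No filter on low counts called 8, at least 10 counts in every library 1, the newer edgeR method (chosen after seeing the data) 4, an adjusted p under 0.1 2, DESeq2 188 and the model of 10 libraries 117. The 10-library count was 45 to 250 when a library of 78 hpf was left out. The clutch numbers were not shown to pair the libraries (correlation of deviations -0.145), and the crossed pairing, chosen after seeing the data, called 0 genes with 1293 at an unadjusted p under 0.05. For the difference between ages, at least 10 counts in every library called 77 genes, the replicate block 0, and leaving out a library 0 to 64. Genes separated and higher numbered 167 with at least 10 counts in every library, 484 at 1.5-fold and 104 at 4-fold, and 394 to 757 when a library was left out. Separated and lower they numbered 47, 532 and 12 in the same order, and 267 to 1825 when a library was left out. The log2 fold change of atf6 was 1.98 in DESeq2, which called it.

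Of the 83 other named genes, DESeq2 called 58 and the model of 10 libraries 44. Those that changed sign were near 0: without the filter DNAJC10 was 0.03 and DDIT3 0.02, and in the model of 10 libraries DNAJC10 was 0.14, EDEM3 0.01, DDIT3 0.12 and atf4b 0.11, where the median of all genes moved to 0.07. With a library left out DNAJC10 ran from -0.09 to 0.13, EDEM3 from -0.33 to 0.14, RNF185 from -0.46 to 0.11, DDIT3 from -0.56 to 0.39, atf4b from -0.17 to 0.15 and LRIG3 from -0.55 to 0.73.

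In the model of 10 libraries the list medians were 0.10 for the integrated stress response, 0.56 for transport, 3.81 for endocrine pancreas (3.30 without the filter, 0.10 with at least 10 counts), 0.18 for cytosolic chaperones, 0.28 for ribosomal proteins and 0.44 for aminoacyl-tRNA synthetases. With a library left out they ran from 2.1 to 2.92 for ER chaperones, 0.30 to 0.78 for disulfide isomerases, 0.67 to 1.22 for glycoprotein quality control, -0.04 to 0.05 for the integrated stress response, 0.12 to 0.67 for translocation, 0.29 to 0.63 for transport, -0.65 to 0.62 for apolipoproteins, -0.61 to 0.75 for hepatocyte genes, -0.16 to 0.49 for liver transcription factors, 0.00 to 0.12 for cytosolic chaperones and 0.16 to 0.46 for the synthetases. For other tissues they ran from 1.68 to 6.99 (exocrine pancreas), 0.78 to 3.63 (endocrine pancreas), -5.18 to -1.33 (muscle), -6.36 to 1.31 (heart), -1.72 to 1.81 (intestine), -2.24 to 0.32 (erythrocyte) and -3.18 to 1.52 (lens, brain and cartilage). The causes were not tested. Depth limits genes of low level, for which 3 counts corresponded to 0.472 to 0.616 CPM.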

Other observations

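Several genes, chosen after their values were seen, were high in both libraries titled clutch 1 and low in both titled clutch 2, although the clutch numbers were not shown to pair the libraries. PCK1, the rate-limiting enzyme of gluconeogenesis, had 670 and 12.6 CPM in Natf6 clutches 1 and 2 and 554 and 8.54 CPM in SIBS clutches 1 and 2. The smooth muscle actin acta2 had 431 and 13.5 CPM in Natf6 and 1173 and 11.8 CPM in SIBS. VIL1, villin of the intestinal brush border, had 163 and 9.48 CPM in Natf6 and 197 and 22.5 CPM in SIBS. AGR2, a disulfide isomerase of mucus-secreting cells, had 36.3 and 6.67 CPM in Natf6 and 61.6 and 5.43 CPM in SIBS.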
